A study of Mus musculus with 8 samples.

Results

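The interferon-stimulated genes described here are 39 mouse mRNAs whose transcription is raised by interferons. They were taken by gene symbol from the mRNA table of the study, and all 39 were found among its 22481 symbols. RNA was sequenced from extracellular vesicles (EVs) released by digestion of left ventricle tissue, with 1 library per mouse. The sham group (S-EVs, n = 4) came from male C57BL/6J mice of 10 weeks that had a sham operation. The IR group (IR-EVs, n = 4) came from mice of the same sex, strain and age that had the left anterior descending coronary artery tied for 45 min (ischemia) and then 24 h of reperfusion. No genetic modification and no agent other than anaesthetics (pentobarbital for the operation, isoflurane for echocardiography) is named for this model. Ischemia and reperfusion were applied together, so their effects cannot be told apart.

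Interferons are secreted proteins that warn cells of infection or damage. Type I interferons (alpha and beta) and type III interferons (lambda) signal through Jak kinases to a transcription factor complex that binds the interferon-stimulated response element in promoters. Interferon gamma, made mainly by T cells and natural killer cells, signals to factors that bind the gamma activated site, and it drives the guanylate-binding proteins, the immunity-related GTPases and Cxcl9 in particular. In the heart, interferon-stimulated genes are known from macrophages after infarction, and in the gut from the epithelium and its lymphocytes. The 39 genes were divided by the interferon they are usually read out for into an interferon-gamma class of 12 and a type I and III class of 27, although most genes answer to both.

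The labelled tissue was checked against marker genes before the results. Apart from mt-Co1 and Actb, the most abundant mRNAs were Reg3b, Apoa1, Apoa4, Rbp2, Fabp2 and Lypd8, which are known from the small intestine. Summed over 10 enterocyte markers, the level was 15939.9 to 19417.2 FPKM (fragments scaled to transcript length and library size) in the sham libraries and 18758.2 to 26977.7 in the IR libraries. Summed over 10 cardiomyocyte markers it was 3.52 to 4.13 FPKM in sham and 1.71 to 3.27 FPKM in IR, with Myl2, Nppa, Mb and Csrp3 at 0 and Myh6 at 1 fragment over all libraries. The genes that define cardiomyocytes were thus nearly absent, and the values below are given for the libraries as labelled. The libraries held 13824442 (IR 1) to 22497260 (sham 3) estimated fragments.

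Sham 2 and IR 3 had the highest summed levels of the interferon-stimulated genes in their groups. IR 3 stood apart less clearly, because IR 1 lay between it and the other IR libraries. Over the 39 genes the summed level was 1231.2, 2238.4, 726.5 and 804.9 FPKM in sham 1 to sham 4 and 1460.2, 975.2, 2134.9 and 938.9 FPKM in IR 1 to IR 4. Sham 2 and IR 3 had similar sums, more than 2 times the lowest of their own group, so the comparison of IR with sham and the spread between mice are also given without them. The 3 deepest libraries, sham 3, sham 4 and IR 2, were among the 4 with the lowest sums, and the part of depth in this was not tested.

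Promoter sequences are shown first, because they hold the letters to which the interferon-activated factors are known to bind in some of these genes. Of the 39 members, 30 had an entry in the RefSeq promoter table (build GRCm38.p6), which covers 250 bases before and 50 bases after each start site. Both strands were searched for the core of the interferon-stimulated response element, GAAA followed by any 2 bases and a further GAAA, and for the gamma activated site, TTCNNNGAA, where N is any base. The response element core was found in 17 of 30 members (56.7%), against 1079 of 27025 genes in the whole table (3.99%). With 1 further C after the core it was found in 13 members (43.3%), against 0.944% of all genes. The gamma activated site was found in 10 members (33.3%), against 9.55% of all genes. At least 1 of these motifs was found in 22 of the 30 members, so the rest held neither in this window. Of the 9 interferon-gamma class members with an entry, 6 held the response element core and 5 the gamma activated site, and of the 21 type I and III members 11 and 5 did. A match describes letters in a window and is not evidence of binding.

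Stretches that begin just before the first match and end at the base before the start site follow for 6 members, 5′ to 3′ on the strand of the gene, with each match in capitals. Ifit1 (chr19:34640765-34640888, plus strand) and Isg15 (chr4:156200819-156200916, minus strand) represent the type I and III class. Gbp2 (chr3:142620584-142620662), Igtp (chr11:58199491-58199555), Irgm2 (chr11:58214882-58214976) and Irf1 (chr11:53769904-53770013), all on the plus strand, represent the interferon-gamma class.
Ifit1: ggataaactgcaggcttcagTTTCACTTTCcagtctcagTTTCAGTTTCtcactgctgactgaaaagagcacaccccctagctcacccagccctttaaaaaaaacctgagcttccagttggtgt
Isg15: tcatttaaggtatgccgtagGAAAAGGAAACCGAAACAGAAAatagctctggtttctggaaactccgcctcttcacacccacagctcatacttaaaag
Gbp2: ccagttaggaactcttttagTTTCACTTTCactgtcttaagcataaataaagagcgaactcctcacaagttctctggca
Igtp: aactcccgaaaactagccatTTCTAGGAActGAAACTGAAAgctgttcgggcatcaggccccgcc
Irgm2: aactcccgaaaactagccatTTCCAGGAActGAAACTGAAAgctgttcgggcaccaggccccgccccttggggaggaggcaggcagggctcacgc
Irf1: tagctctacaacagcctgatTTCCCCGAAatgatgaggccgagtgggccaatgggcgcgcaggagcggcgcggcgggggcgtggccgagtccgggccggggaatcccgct

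Ifit1 held a pair of response element cores on the opposite strand, 104 and 85 bases before the start. Isg15 held 3 overlapping cores, the farthest starting 78 bases before the start. Igtp and Irgm2, which are neighbouring paralogs, both held a gamma activated site followed by a response element core at the same spacing. Irf1 held a gamma activated site 90 bases before the start and no response element core in the window.

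No interferon-stimulated gene was called different between IR-EVs and S-EVs. In edgeR's quasi-likelihood test over 12716 mRNAs with a mean of at least 0.5 FPKM, 0 of 39 members had an adjusted p under 0.05 (Benjamini-Hochberg) with a fold change over 2, as was the case for all mRNAs (0.0%). At an unadjusted p under 0.05, 0 of 39 members passed, against 9.73% of all mRNAs, and by DESeq2 and by limma the number of members was also 0, against 10.8% and 10.3%. DESeq2 called 40 mRNAs (0.315%) by the same thresholds, none of them a member. For each of the 39 genes the IR values overlapped the sham values, whereas the groups did not overlap for 5.25% of all mRNAs (0.873% higher and 4.37% lower in IR). The adjusted p ran from 0.612 (Ifi35) to 0.975 (Irgm1) in edgeR. Exact permutation tests of single members gave p from 0.343 to 1.0, two-sided, where 0.0286 is the smallest that 4 against 4 libraries can give.

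The log2 fold changes, IR over sham, were mostly above 0, and each was below 2 standard errors. Their median over the members was 0.28, with 37 of 39 above 0, beside a median of 0.00 and 49.9% above 0 for all mRNAs. They ran from -0.36 (Oas2, standard error 0.74) to 0.78 (Ifit3, standard error 0.73). By limma on log2(FPKM + 0.1) the median was 0.20 over the members and -0.10 over all mRNAs, and by edgeR with median-ratio scaling it was 0.29 and 0.00. Without sham 2 the median rose to 0.82 with all 39 above 0, and without IR 3 it fell to 0.01 with 21 above 0. Without sham 3 or sham 4 it was 0.09 and 0.16, with 28 and 31 above 0. The size of the median thus rested on single mice. The median stayed above 0 in all 8 fits that left out 1 library, but only just without IR 3. In that fit it was -0.06 for the type I and III class, with 12 of 27 genes above 0. For the interferon-gamma class it was 0.22, with 9 of 12 above 0. The genes ordered the mice alike and the fits share libraries, so these counts are not independent support for a direction.

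**Figure D1:**
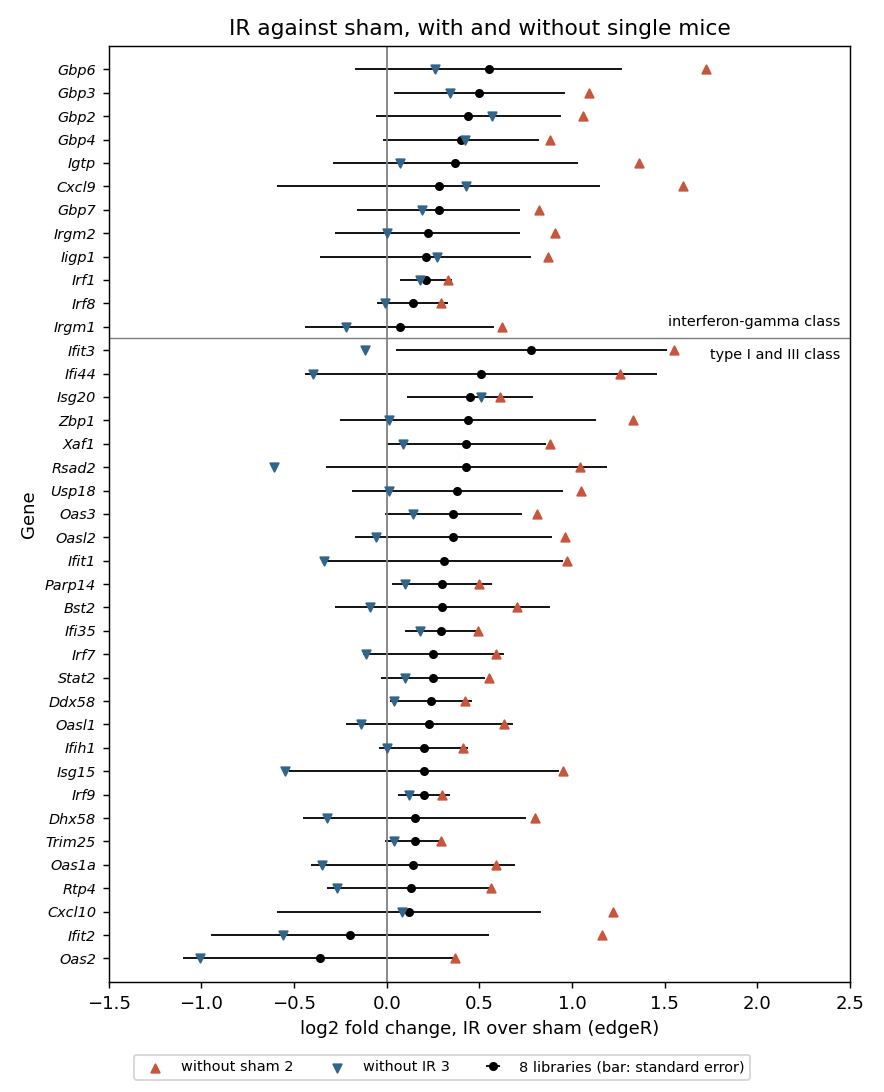
Log2 fold change of each of the 39 genes, IR over sham, from edgeR with all 8 libraries (black points, bars show the standard error), without sham 2 (red triangles) and without IR 3 (blue triangles), grouped by class. The red triangles all lie above 0, whereas 21 of the blue ones do.

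The fit without sham 2 was singled out because sham 2 had the highest summed level of these same genes in the sham group. Leaving it out raises IR over sham for such genes, so the share of all mRNAs is not a like background for them. Most members also ordered the mice alike, so the counts below are not of independent genes. Without sham 2, 14 members had an unadjusted p under 0.05 in edgeR, against 13.3% of all mRNAs. Of these, 8 were among the 12 genes of the interferon-gamma class (Irf1, Gbp2, Gbp3, Gbp4, Gbp6, Gbp7, Igtp and Irgm2) and 6 among the 27 of the type I and III class (Stat2, Ifit2, Oas3, Xaf1, Ifi35 and Cxcl10). None was called, beside 0.00788% of all mRNAs, and the smallest adjusted p was 0.181 (Ifi35, log2 fold change 0.49). Also without sham 2, the groups no longer overlapped for Gbp6 and Ifi35, named after their values were seen, beside 11.2% of all mRNAs. For Gbp6 the gap was smaller than the printed digits, with 2.2 FPKM in both sham 4 and IR 2. In the 7 other fits that each left out 1 library, 0 members had an unadjusted p under 0.05. The share of all mRNAs was 7.25%, 8.71% and 7.18% without sham 1, sham 3 and sham 4, and 6.84%, 7.77%, 7.63% and 11.8% without IR 1 to IR 4.

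Among the transcription factors, the 5 genes had log2 fold changes of 0.14 to 0.25. Irf1 (chr11:53770014-53778374), an early target of interferon gamma, stood at 109.4, 143.1, 92.8 and 109.2 FPKM in sham 1 to 4 and at 138.6, 112.8, 126.8 and 109.2 FPKM in IR 1 to 4. Its highest library exceeded its lowest by 1.54 times, the narrowest range of all members, and the groups overlapped over most of it (log2 fold change 0.21, standard error 0.14, adjusted p = 0.627 in edgeR). Irf7, which sustains the production of type I interferon and was chosen after its values were seen, had 94.3, 137.1, 51.9 and 54.2 FPKM in sham 1 to 4 and 85.8, 67.4, 152.3 and 60.6 FPKM in IR 1 to 4. Sham 2 and IR 3 were its highest libraries, and the means of 84.4 ± 40.2 FPKM in sham and 91.5 ± 41.9 FPKM in IR (SD, n = 4) differed by less than either SD. Stat2 and Irf9, which act in the type I and III complex, averaged 23.0 and 22.7 FPKM, and Irf8, a factor of myeloid cells, averaged 38.5 FPKM. Irf8 is uncertain because its deposited locus also spans neighbouring genes.

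The ISG15 system attaches a ubiquitin-like protein to other proteins. Isg15 (chr4:156199424-156200818), the modifier itself, stood at 58.8, 117.0, 17.9 and 14.4 FPKM in sham 1 to 4 and at 47.9, 25.7, 118.0 and 21.1 FPKM in IR 1 to 4. Sham 2 and IR 3 were nearly equal, and both were far above the other 6 mice. The log2 fold change was 0.20 with a standard error of 0.73 (adjusted p = 0.95 in edgeR). Usp18, which removes Isg15 and dampens signalling at the type I receptor, ranged from 7.05 FPKM (sham 3) to 50.4 FPKM (sham 2). Trim25, a ubiquitin ligase that activates the RNA sensor encoded by Ddx58, had the smallest p of these genes and stood at 49.7, 66.4, 37.2 and 41.8 FPKM in sham 1 to 4 and at 50.7, 45, 59.2 and 41.9 FPKM in IR 1 to 4. The same mice were highest, with a ratio of highest to lowest of only 1.79 (log2 fold change 0.15, adjusted p = 0.785 in edgeR).

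The Ifit proteins bind foreign RNA and block its translation, and their genes lie side by side on chromosome 19. Ifit1 (chr19:34640889-34650009) had 50.7, 112.4, 21.9 and 25.7 FPKM in sham 1 to 4 and 50.1, 41.3, 124.1 and 19.7 FPKM in IR 1 to 4. Ifit3 (chr19:34583119-34588982) had 11.4, 28.2, 4.88 and 4.85 FPKM in sham 1 to 4 and 15.3, 7.6, 45.6 and 7.59 FPKM in IR 1 to 4. In both genes IR 3 was highest and sham 2 second. For Ifit3 the mean was 12.3 ± 11.0 FPKM in sham and 19.0 ± 18.1 FPKM in IR, with a log2 fold change of 0.78 (adjusted p = 0.735 in edgeR) that became -0.12 without IR 3. Ifit2 averaged 5.29 FPKM and was highest in sham 2 at 17.1 FPKM. Ifit3 has a near-identical copy in the genome, so the split of fragments between the copies is uncertain.

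The OAS proteins sense double-stranded RNA, most of them by making the second messenger of RNase L. Oasl2 (chr5:114896926-114912245), the most abundant member of the whole list, stood at 125.2, 255.2, 54.3 and 55.8 FPKM in sham 1 to 4 and at 143.2, 94.3, 254.0 and 84.8 FPKM in IR 1 to 4. The highest values of both groups were nearly equal, and IR over sham gave 0.36 ± 0.53 on the log2 scale (standard error, with an adjusted p of 0.846 in edgeR). Oasl1, Oas1a, Oas2 and Oas3 averaged 52.0, 27.8, 7.5 and 29.5 FPKM, all highest in sham 2 or IR 3, and Oas1a belongs to a cluster of close paralogs. Isg20, an exonuclease that degrades viral RNA, departed from them with 2.93, 3.37, 1.47 and 1.89 FPKM in sham 1 to 4 and 5.18, 1.59, 2.59 and 3.34 FPKM in IR 1 to 4. It was the only one of the 39 genes with its highest FPKM outside sham 2 and IR 3, and it rested on as few as 31 fragments in a library (log2 fold change 0.45, standard error 0.34, adjusted p = 0.671 in edgeR).

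The nucleic acid sensors start the response that induces interferon. Ifih1, which senses long double-stranded RNA, had 42.6, 63.1, 34.8 and 36.0 FPKM in sham 1 to 4 and 47.0, 36.5, 66.3 and 37.9 FPKM in IR 1 to 4. Ddx58, which encodes RIG-I, had 42.7, 60.6, 35.3 and 35.3 FPKM in sham 1 to 4 and 48.4, 40.2, 65.9 and 35 FPKM in IR 1 to 4. Both followed the order of the other members within a narrow range, with highest over lowest ratios of 1.9 and 1.88 and log2 fold changes of 0.20 and 0.24 (adjusted p of 0.8 and 0.736 in edgeR). Zbp1, a sensor of nucleic acid in the Z form chosen after its values were seen, ranged more widely, with 29.4, 90.2, 10.8 and 20.4 FPKM in sham 1 to 4 and 60.1, 14.8, 78.4 and 24.4 FPKM in IR 1 to 4. Dhx58, a regulator of these sensors, averaged 10.4 FPKM with a ratio of highest to lowest of 6.09.

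The interferon-inducible GTPases attack the membranes around intracellular microbes, and 9 of them were measured. Igtp (chr11:58199556-58207592) had 33.2, 125.5, 13.4 and 26.6 FPKM in sham 1 to 4 and 80.3, 25.1, 89.9 and 37.0 FPKM in IR 1 to 4. Sham 2 exceeded sham 3 by 9.38 times, and the log2 fold change of 0.37 (adjusted p = 0.876 in edgeR, standard error 0.66) became 1.36 without sham 2. Gbp3 (chr3:142560016-142573213), a guanylate-binding protein, had 4.1, 13.4, 2.7 and 3.56 FPKM in sham 1 to 4 and 10.6, 3.37, 10.2 and 8.94 FPKM in IR 1 to 4. Here 3 of the 4 IR mice were above every sham mouse but sham 2, which was above them all (log2 fold change 0.50, standard error 0.46, adjusted p = 0.735 in edgeR). Gbp2, chosen after its values were seen, had 6.44, 23.1, 4.93 and 9.46 FPKM in sham 1 to 4 and 20.4, 6.6, 9.76 and 18.9 FPKM in IR 1 to 4. In Gbp2 the mice next to sham 2 were IR 1 and IR 4, and IR 3 was close to sham 4. Gbp4, Gbp6, Gbp7, Irgm1, Irgm2 and Iigp1 averaged 4.07, 4.87, 7.07, 35.6, 24.7 and 9.41 FPKM, and each was highest in sham 2. The Gbp genes are close paralogs, and Igtp and Irgm2 share 1 deposited locus, so their levels are uncertain to the extent that fragments could be split between copies.

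The other effectors include Parp14, an ADP-ribosyltransferase, with 72.5, 108.4, 67.4 and 54.7 FPKM in sham 1 to 4 and 78.3, 93.3, 124.2 and 55.9 FPKM in IR 1 to 4. IR 3 and sham 2 were again the highest (log2 fold change 0.30, standard error 0.27, adjusted p = 0.719 in edgeR). Ifi35 (chr11:101448412-101458701), which pairs with Nmi, had the smallest p of all members, with 66.9, 102.8, 57.1 and 60.0 FPKM in sham 1 to 4 and 79.6, 72.8, 99.9 and 70.3 FPKM in IR 1 to 4. Every IR mouse was above every sham mouse but sham 2, and the log2 fold change was 0.29 with a standard error of 0.19 (adjusted p = 0.612 in edgeR). Rsad2 (viperin), which halts viral replication, ranged from 2.65 FPKM in sham 4 to 28.8 FPKM in IR 3. Bst2 (tetherin), which holds budding virus at the cell surface, ranged from 7.94 FPKM in sham 3 to 42.5 FPKM in IR 3. Ifi44 had the widest range of the list, from 1.99 FPKM in sham 4 to 44.4 FPKM in IR 3, or 22.3 times. Rtp4, a receptor transport protein, and Xaf1, which favours cell death, averaged 24.7 and 23.5 FPKM with ratios of highest to lowest of 3.65 and 3.51.

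Cxcl9 and Cxcl10 encode chemokines that draw activated T cells through the receptor Cxcr3. Cxcl9 (chr5:92321331-92328079), of the interferon-gamma class, stood at 0.864, 11.3, 0.897 and 2.79 FPKM in sham 1 to 4 and at 9.57, 1.24, 2.92 and 3.99 FPKM in IR 1 to 4. Sham 2 and IR 1 were high and IR 3 was not, and the log2 fold change was 0.28 with a standard error of 0.87 (adjusted p = 0.936 in edgeR). Cxcl10 ranged from 1.25 FPKM (IR 2) to 10.4 FPKM (sham 2), with IR 1 second at 7.3 FPKM. These were among the scarcest members, with as few as 45 and 26 fragments in a library, whereas 36 of the 39 genes had at least 100 in every library.

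**Figure D2:**
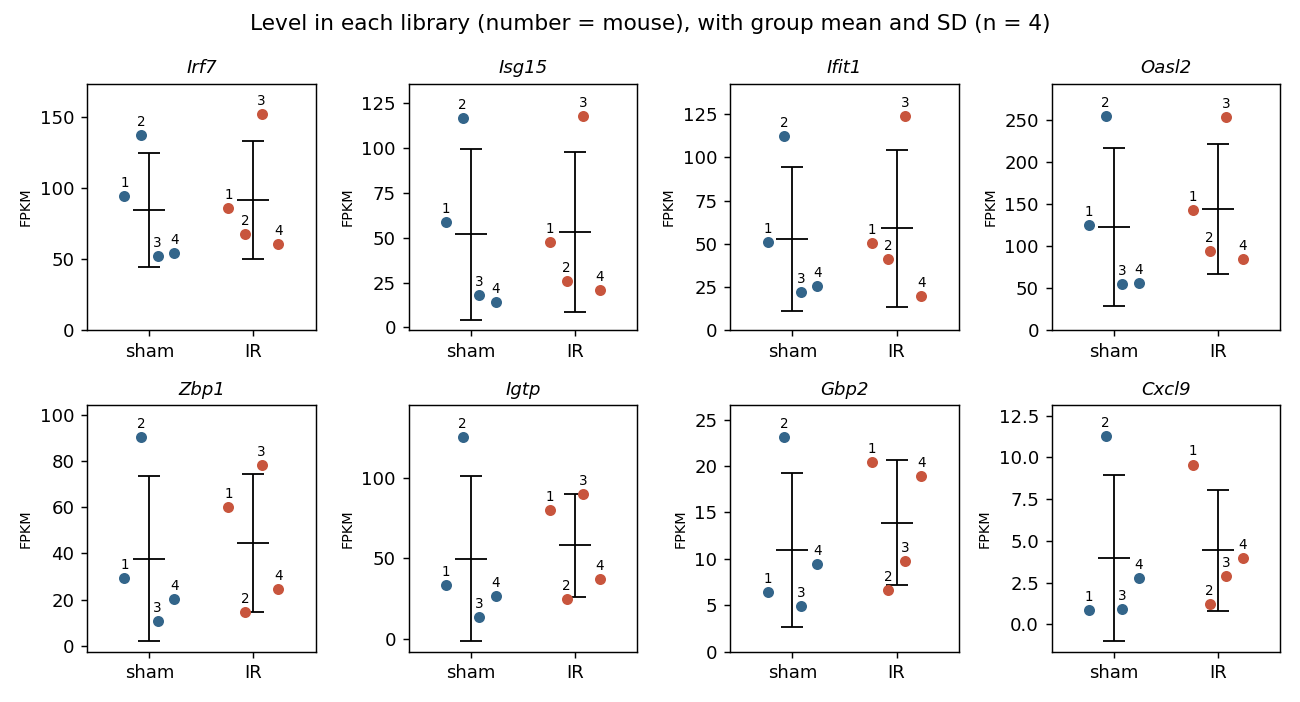
FPKM of 8 members in each library (points, numbered by mouse), with the group mean and SD (n = 4). Sham 2 and IR 3 are the highest points of their groups for Irf7, Isg15, Ifit1, Oasl2, Zbp1 and Igtp, whereas for Gbp2 and Cxcl9 IR 1 is the highest of the IR group.

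The members varied between mice of the same group far more than other mRNAs of like level. The within-group SD of log2(FPKM + 0.1) had a median of 0.89 over the members and of 0.23 over the 9067 mRNAs with a mean between 2.8 and 133.3 FPKM, the range of the members. Of the 39, 30 were above the 90th percentile of those mRNAs and 14 above the 99th, while Irf1, at the 46.0 percentile, varied least. The ratio of highest to lowest library was above 2 for 32 members (27.9% of mRNAs of like level), above 4 for 22 (4.62%) and above 8 for 11 (1.15%). Its median was 4.7 for the members and 1.64 for the mRNAs of like level. Without sham 2 the median SD of the members was 0.67, without IR 3 it was 0.91, and without both it was 0.64, a setting chosen after the data were seen, each beside 0.23 for mRNAs of like level. Without both, 26 of the 39 were still above the 90th percentile.

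The mice were ordered alike by most of these genes. The highest FPKM was in sham 2 for 24 members, in IR 3 for 14 and in IR 1 for 1, so that sham 2 or IR 3 led in 97.4% of members against 22.6% of all mRNAs. Both were the top pair for 30 members (76.9%), against 4.97% of all mRNAs. In CPM (fragments scaled to library size only, here corrected by TMM, the trimmed mean of M-values), IR 3 led more often, with 22 members to 14 for sham 2, and 36 members together (92.3%, against 17.6%). The lowest FPKM was in sham 3 for 20 members, in sham 4 for 9, in IR 2 for 5, in IR 4 for 3 and in sham 1 for 2. The median of the members relative to their own mean over the 8 libraries, less the same median for all mRNAs, was -0.17, 1.00, -0.79 and -0.58 on the log2 scale in sham 1 to 4 and 0.40, -0.31, 0.80 and -0.42 in IR 1 to 4. Sham 2 stood well above the other sham mice, whereas in the IR group IR 3 was followed by IR 1. In the interferon-gamma class the medians taken for each library were 0.91 in IR 1 and 0.49 in IR 3. Gene by gene these mice were close in that class, with a median ratio of IR 1 to IR 3 of 1.06.

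**Figure D3:**
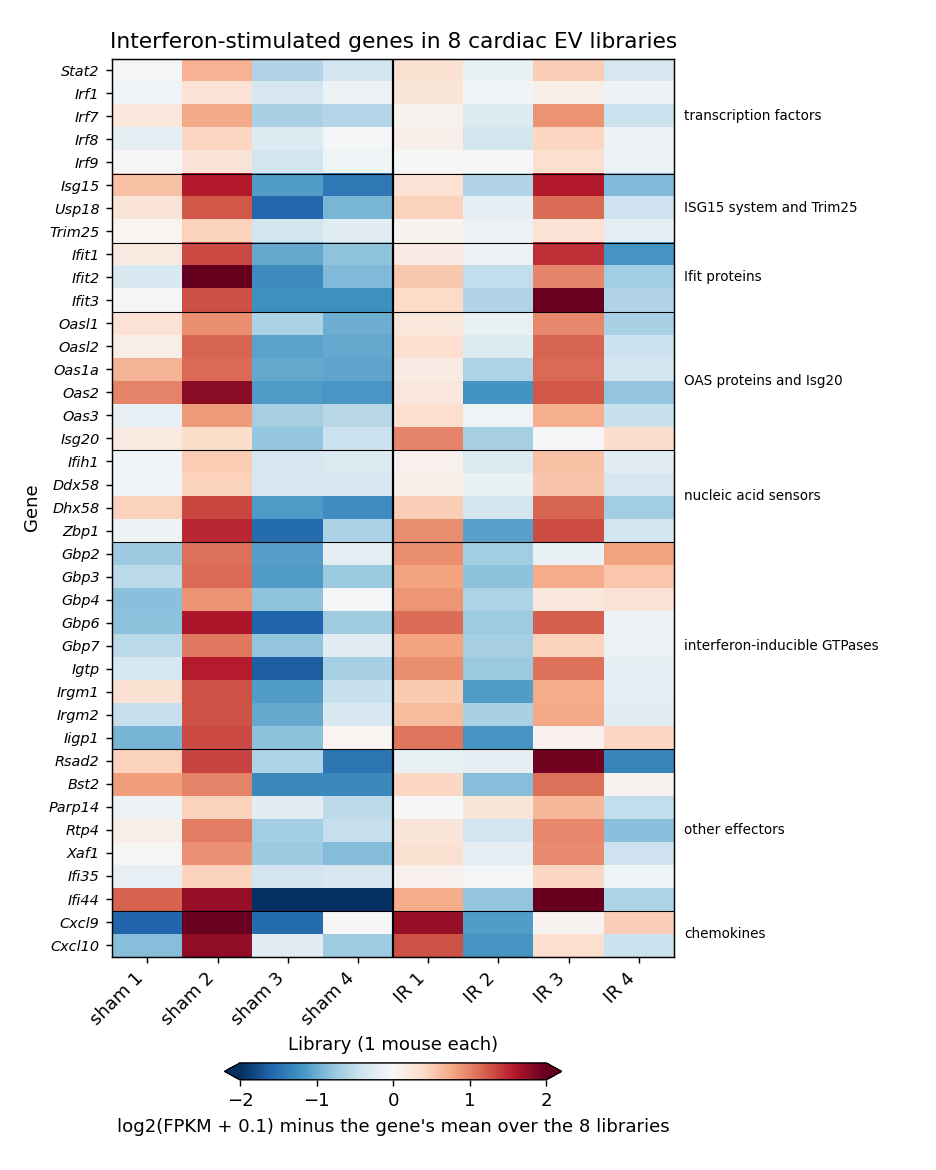
Level of each of the 39 genes (rows, ordered by role) in each library (columns), as log2(FPKM + 0.1) minus the gene's mean over the 8 libraries, with red for higher and blue for lower. Columns sham 2 and IR 3 are red for nearly all genes, and IR 1 is reddest in the GTPases and chemokines.

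The classes differed in which mice came next. All 12 genes of the interferon-gamma class were highest in sham 2, as were 12 of the 27 type I and III genes. In CPM sham 2 was highest for 9 of the 12 and 5 of the 27, and IR 3 for 1 and 21. By FPKM IR 1 was above IR 3 for 7 of the 12, against 2 of the 27 (Isg20 and Cxcl10) and 48.3% of all mRNAs, and in CPM for 6 and 2. The ratio of IR 1 to IR 3 had a median of 1.06 in the interferon-gamma class (0.802 to 3.28), of 0.63 in the type I and III class (0.235 to 2.0) and of 0.992 over all mRNAs. IR 4 was among the top 4 libraries for 9 of the 12 but 1 of the 27, beside 65.5% of all mRNAs, and sham 1 for 1 of the 12 but 23 of the 27, beside 65.0%. In CPM these counts were 9 and 2 for IR 4 (51.2% of all mRNAs) and 1 and 14 for sham 1 (49.5%). These are descriptions of single mice, and genes of a class are not replicates, so the difference between the classes was not tested.

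**Figure D4:**
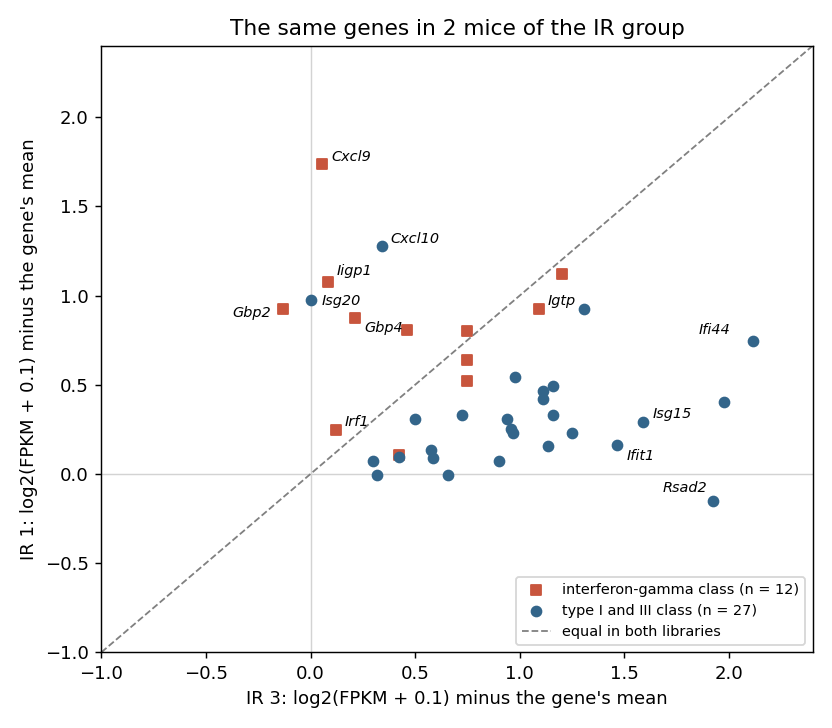
Level of each member in IR 3 (horizontal) and IR 1 (vertical), as log2(FPKM + 0.1) minus the gene's mean over the 8 libraries, with squares for the interferon-gamma class and circles for the type I and III class. Of the squares 7 of 12 lie above the line of equal levels, and of the circles 2 of 27.

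Genes of the pathway outside the 39 were taken from lists. Of 19 interferon genes in the table none reached 0.5 FPKM on average and only 4 had any fragment. Ifng, the gene of interferon gamma, had 0, 0.253, 0.0714 and 0.121 FPKM in sham 1 to 4 and 0.609, 0.043, 0.159 and 0.165 FPKM in IR 1 to 4, on 28 fragments in all, with IR 1 highest at 11. Ifnb1 and the interferon alpha genes were not detected at this depth. All 6 interferon receptor genes were tested, 0 with an unadjusted p under 0.05, with or without sham 2 or IR 3. The ratio of highest to lowest library was 1.98 for Ifnar2 (11.9 to 23.6 FPKM), 1.55 for Ifngr1 (67.4 to 104.8 FPKM) and 1.34 to 1.49 for the other receptor genes. Jak1, a kinase bound to these receptors, ranged from 34.3 to 41.9 FPKM.

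Of 12 genes that induce interferon, Tlr7 alone had an unadjusted p under 0.05 in edgeR, against 9.73% of all mRNAs. Without sham 2 the count was 2 (13.3% of all mRNAs). Tlr7 stood at 0.641, 1.16, 0.559 and 1.21 FPKM in sham 1 to 4 (0.892 ± 0.339). In IR 1 to 4 it stood at 1.2, 0.734, 0.994 and 1.39 FPKM (1.08 ± 0.283), so the groups overlapped. Its log2 fold change of 0.67 (adjusted p = 0.456 in edgeR) came from fragments and is larger than these FPKM means give. Of 7 negative regulators, Ptpn6, a phosphatase of blood cells, alone had an unadjusted p under 0.05 in edgeR, beside the same 9.73%. It stood at 10.2 ± 2.27 FPKM in sham and 15.2 ± 1.84 FPKM in IR (log2 fold change 0.54, adjusted p = 0.455 in edgeR). A list of 75 further interferon-stimulated genes, 68 of them tested, had a median log2 fold change of 0.29, with 0 called. The highest library was sham 2 or IR 3 for 50 of the 68 (73.5%), and 4 of the 68 had higher levels in IR at an unadjusted p under 0.05, against 9.73% of all mRNAs in either direction. Sham 2 was the highest library for 36 of the 68, so in the fit without it the share of all mRNAs is not a like background. In that fit 25 of 66 were higher in IR at an unadjusted p under 0.05 in edgeR (13.3% of all mRNAs), with a median of 0.54. Without IR 3 the count was 4 of 67 (7.63%) with a median of 0.09. Of the 4, Ido1, the tryptophan-degrading enzyme, stood at 6.26 ± 2.52 FPKM in sham and 14.1 ± 5.33 FPKM in IR (log2 fold change 1.28, adjusted p = 0.455 in edgeR). Ifi27 had a log2 fold change of 0.44 and Gbp8 of 0.72, with adjusted p of 0.455 and 0.479 in edgeR, and the fourth was Slfn8. B2m, the light chain of MHC class I and the most abundant of the list, averaged 1449.1 FPKM and was highest in IR 1 at 1949.3 FPKM.

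Markers of immune cells moved with part of this pattern. Summed over 12 genes of T and natural killer cells the level was 78.5, 263.7, 77.7 and 156.2 FPKM in sham 1 to 4 and 415.8, 168.1, 290.9 and 347.7 FPKM in IR 1 to 4. IR 1 was highest here, before IR 4 and IR 3, and sham 2 was the highest of the sham mice. Of the 12, 8 had higher levels in IR at an unadjusted p under 0.05 in edgeR, with 0 called, against 9.73% of all mRNAs in either direction. Without sham 2 the count was 11 (13.3% of all mRNAs), and without IR 3 it was 7 (7.63%). With all libraries, Ccl5 was 1.81 and Cd8a 1.32 on the log2 scale. Summed over 6 genes of B and plasma cells the level was 120.0, 510.1, 160.4 and 218.1 FPKM in sham 1 to 4 and 515.5, 304.3, 487.7 and 426.1 FPKM in IR 1 to 4. The 10 macrophage and dendritic cell markers summed to 64.2 to 93.2 FPKM in sham and 76.6 to 124.1 FPKM in IR. Mertk, which other cells also express, made up most of these sums. Without Mertk, a choice made after the values were seen, the 9 others summed to 16.8, 41.1, 19.2 and 23.2 FPKM in sham 1 to 4 and to 49.6, 23.7, 32.2 and 40.7 FPKM in IR 1 to 4, so that sham 2 was the highest sham mouse and IR 3 the third of the IR mice. Neutrophil markers summed to 0.584 to 1.89 FPKM. The part of these cells in the level of the interferon-stimulated genes was not tested. In RNA pooled from the vesicles of a mouse, the number of cells of a type and the RNA released per cell cannot be told apart.

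Some markers of Paneth cells, which secrete antimicrobial peptides at the base of intestinal crypts, also had their highest values in sham 2 and IR 3. Lyz1, the lysozyme of these cells, stood at 193.9, 715.4, 455.1 and 573.7 FPKM in sham 1 to 4 and at 242.7, 134.6, 659.1 and 351.6 FPKM in IR 1 to 4. Defa24, a defensin, stood at 217.5, 969.5, 691.2 and 885.2 FPKM in sham 1 to 4 and at 376.5, 216.5, 1046.6 and 659.8 FPKM in IR 1 to 4. Sham 3 and sham 4, which were low for most members, came next in these genes, ahead of IR 1. Of 8 Paneth and goblet cell markers, 3 (Lyz1, Defa24 and Itln1) had sham 2 and IR 3 as the top pair, as did 0 of the 12 T and natural killer cell, 10 macrophage and dendritic cell and 6 B and plasma cell markers. The 8 summed to 2041.6 to 3963.0 FPKM in sham and 2774.9 to 3646.6 FPKM in IR, with none at 0. Their part in the level of the interferon-stimulated genes was not tested.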

How the data were processed

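RNA from cardiac EVs of 4 sham and 4 IR mice was depleted of ribosomal RNA and sequenced as stranded libraries. Reads were trimmed by the authors with cutadapt 1.9.3, aligned to mm10 with HISAT2 and quantified with Cuffdiff. Versions of the latter, the annotation and the strand setting are not given in the sources used here. The authors took FPKM values from Cuffdiff, in which fragments are divided by the length of the transcript and the size of the library. The estimated counts, as deposited, are Cuffdiff fragments multiplied by 1 factor per library. Each count was divided by the value of 1 fragment in its library (0.763 to 1.18, the most frequent value above 0) and rounded, and 90.7% to 91.0% of values lay within 0.02 of a whole number. Rows of 1 symbol were summed (70 symbols), which left 22481 symbols, and the totals were 13824442 to 22497260 fragments. Total fragments limit precision little except for the scarcest members, and errors given are between mice.

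IR was compared with sham by the two-sided quasi-likelihood F test of edgeR 4.0.16 in R 4.3.3 (robust, TMM), for mRNAs that averaged 0.5 FPKM or more. P-values were adjusted over all of these by Benjamini and Hochberg, and a gene was called when its fold change passed 2 and its adjusted p was under 0.05. limma 3.58.1 on log2(FPKM + 0.1) or log2(FPKM + 1), DESeq2 1.42.0, leaving out each library in turn, a block for the replicate number, scaling by median ratios and dropping the filter were the alternatives. Fold changes from limma are on the log2(value + pseudocount) scale, which understates changes of low genes. Standard errors are the log2 fold change over the root of F. The spread within groups was taken as the SD of log2(FPKM + 0.1), in place of a coefficient of variation. The test was checked on simulated counts. Of 100 genes changed 2-fold, 66% had an adjusted p under 0.05 in edgeR and 33% were called. Of 100 changed 4-fold, 93% were called, with 1 false call. The changed genes were drawn at random, whereas the members varied more between mice (median SD 0.89 against 0.23 for mRNAs of like level). These shares therefore do not apply to the members, for which the power was not measured.

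Members, classes and lists were chosen with earlier results of these data known. Values in each library are given, for each role group, for the member with the highest mean FPKM and the one with the smallest p, and other members given so are marked as chosen after their values were seen. Gene positions and promoters are from RefSeq, GRCm38.p6, and cover the same coordinates as mm10. The lncRNA table was not used here. The list of signalling genes downstream of the receptors is not reported here as a whole. Tables were written in Python 3.11.15 (pandas 2.3.3, numpy 2.4.6) and plots drawn in matplotlib 3.10.9.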

Additional observations from a re-analysis of the deposited data

Results flagged for a closer look

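In a group of 4 libraries, 1 library stood far from the other 3 when its gap to the nearest exceeded 0.83 of the whole range (Dixon's test). Of 78 groups of 4 values examined, 6 met this, a share near the 1 in 20 that chance gives for independent groups of normally distributed values. The groups here are not independent, because most members ordered the same mice alike, and FPKM values were used without a log scale. Sham 2 was the library in 5 of the 6, which is 1 mouse seen through several genes. Ifit2 was 17.1 FPKM in sham 2 and 1.55 to 3.12 FPKM in the other sham libraries. Gbp3 was 13.4 FPKM in sham 2 against 2.7 to 4.1, and Gbp6 was 11.4 FPKM against 1.16 to 2.2. Irgm2 was 52.2 FPKM in sham 2 against 10.5 to 17.3, and Cxcl10 was 10.4 FPKM against 1.6 to 2.53. In the IR group Rsad2 was 28.8 FPKM in IR 3 and 2.92 to 6.76 FPKM in the others.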

How the results depend on the processing

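No member was called under any of the 14 alternatives, and under those run on all 8 libraries the median log2 fold change of the members stayed between 0.19 and 0.35. It ran from 0.01 (without IR 3) to 0.82 (without sham 2) with 1 library left out. The number of members with an unadjusted p under 0.05 was 0, and 0 to 14 with 1 library left out, and that of members whose groups did not overlap was 0, and 0 to 2. In CPM, 14 members were highest in sham 2 and 22 in IR 3, against 24 and 14 in FPKM. Of 546 values of single members, 49 had the opposite sign to the value reported, in 21 members, 16 of them without IR 3, and the cause was not tested. By limma with a pseudocount of 0.1 the log2 fold change was 0.17 for Ifit2, -0.02 for Irgm1 and -0.01 for Rtp4, and with 1 it was 0.08, -0.02 and -0.01, and -0.01 for Cxcl10. With 1 library left out it ran from -0.11 to 0.59 for Irf7, -0.01 to 0.29 for Irf8, -0.55 to 0.95 for Isg15, -0.34 to 0.97 for Ifit1, -0.56 to 1.16 for Ifit2, -0.12 to 1.55 for Ifit3 and -0.14 to 0.63 for Oasl1. For Oasl2 it was -0.06 to 0.96, for Oas1a -0.35 to 0.59, for Oas2 -1.01 to 0.37, for Ifih1 -0.0049 to 0.41, for Dhx58 -0.32 to 0.80, for Irgm1 -0.22 to 0.62 and for Irgm2 -0.01 to 0.91. For Iigp1 it was -0.21 to 0.87, for Rsad2 -0.61 to 1.04, for Bst2 -0.09 to 0.70, for Rtp4 -0.27 to 0.56, for Ifi44 -0.40 to 1.26, for Cxcl9 -0.45 to 1.6 and for Cxcl10 -0.43 to 1.22.

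With the replicate number as a block (pairing), 0 members were called, the median was 0.35 and Ifit2 was 0.35. Same-numbered sham and IR libraries correlated at -0.354 to 0.052 in their deviations from the group means. Of the 4 sham libraries, 0 correlated best with its own number. No pairing by number was thus visible, but correlations of so few libraries cannot show whether same-numbered mice were handled together.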
